A study of Mus musculus and Homo sapiens with 75 samples.

Results

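C/EBPα is the transcription factor that steers blood progenitors toward the granulocyte and monocyte lineages. Its gene, CEBPA, has a single coding exon that yields a full-length protein, p42, and a shorter one, p30, which lacks the amino-terminal activation domains and is the form that remains in many acute myeloid leukemias with CEBPA mutations. Both proteins keep the basic leucine zipper that binds DNA. Lipopolysaccharide (LPS), a component of the outer membrane of Gram-negative bacteria, is sensed by TLR4 with LY96 and, through NF-κB and AP-1, switches on cytokine and chemokine genes of myeloid cells.

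The comparison described here is that of KO-52 cells given p42 with KO-52 cells given p30, both exposed to LPS, and it was made over every gene of the KO-52 count table. KO-52 is a human acute myeloid leukemia line with mutations of both CEBPA alleles, so all groups, controls included, carried the mutant gene of the line. Cells were electroporated with a plasmid for FLAG-tagged p42 with GFP, for FLAG-tagged p30 with GFP, or for GFP alone (EV), which gives transient expression. GFP-positive cells were sorted 24 h later and rested for 24 h, after which LPS (100 ng/mL) was added for 2 h or the cells stayed untreated (UT). The 6 libraries compared, 3 of p42 and 3 of p30 after LPS, came from 75 libraries in the whole series. Their counterparts were the 6 untreated libraries of the same plasmids and the 3 EV libraries after LPS. Each library was poly-A selected bulk RNA from a population of cells, so fewer cells of a kind and less RNA per cell cannot be told apart. The study describes its replicates as separate experiments.

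The protein forms differ only in where translation begins, and the coding sequence of CEBPA in hg38 (chromosome 19, 33301341 to 33302414, minus strand) is shown around those places because it defines the groups. It held 358 codons, with in-frame ATG codons at positions 1, 15, 120, 218 and 354. Codon 1 opens p42, and codon 120, known as the start of p30, leaves 239 codons. Capitals mark the ATG.
CEBPA codon 1: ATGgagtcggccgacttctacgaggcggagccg
CEBPA codon 120: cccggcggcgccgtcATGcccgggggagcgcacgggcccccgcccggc

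CEBPA itself was measured first. Levels are given in CPM, read counts brought to a common library size with ERCC spike-ins. These are synthetic RNAs added to each sample, in an amount taken here to be equal. CEBPA stood at 820, 1010 and 1560 CPM in the p42 libraries a, b and c after LPS, and at 2850, 2490 and 2430 CPM in the p30 libraries. The groups did not overlap, and p42 was lower by a log2 difference of -1.20 ± 0.26 (SE; adjusted p = 0.000128). EV cells had 2870 ± 790 CPM after LPS (SD, n = 3) without any CEBPA plasmid. Against EV after LPS the difference was -1.34 ± 0.26 for p42 (adjusted p = 9.29e-06) and -0.15 ± 0.26 for p30 (adjusted p = 0.934), so neither plasmid group lay above the empty plasmid. The CEBPA counts therefore do not show the plasmids, and the groups are named here by their labels alone. The study reports, in a supplementary figure, that both forms were overexpressed in transfected KO-52 cells relative to the empty plasmid.

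The 6 libraries held 22557545 to 25871966 counts on genes. ERCC reads took 0.755% of counts in p42 library a, 0.516% in b and 0.387% in c, against 0.415% to 0.539% in the p30 libraries, and the scaling factors that followed were 1.47, 1.0 and 0.769 for the p42 libraries where TMM, which uses the genes themselves, gave 0.995 to 1.0. Library a was therefore scaled down and library c up. The myeloid label of the line held in all 6 libraries: SPI1, the PU.1 transcription factor, reached at least 144 CPM and CD33, a myeloid surface protein, at least 60.0 CPM. The summed level of the 8 erythroid and megakaryocyte markers tested of 18 was 370 to 618 CPM with p42 and 545 to 786 CPM with p30, most of it from TFRC, the transferrin receptor of dividing cells, while GYPB and HBG1 had no count. That of 11 of 12 mast cell and basophil markers was 772 to 1190 against 1530 to 1970 CPM, and that of 12 of 16 lymphoid markers 106 to 193 against 198 to 238 CPM. HDC, the histidine decarboxylase of mast cells and basophils, stood at 365 to 488 CPM with p42 and 932 to 1220 with p30. The part of these markers in the other results was not tested.

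After LPS, 1646 of 21272 genes tested were called higher with p42 (7.74%) and 285 were called lower (1.34%), a call being an adjusted p under 0.05 with a log2 difference beyond 1. Counts of calls in the gene lists below are to be read beside these shares. Among called genes with more than 3 counts in each group, a log2 difference beyond 2 was reached by 690 of 1262 higher and 57 of 277 lower calls, and one beyond 4 by 178 higher calls and, among lower ones, by CD177. The 3 p42 libraries all lay above the 3 p30 libraries for 9.92% of genes and all below for 11.5%. The median log2 difference over all genes was -0.10 with spike-in scaling and 0.05 with TMM scaling. The split of the calls moved with the p42 libraries used. Without p42 library c there were 1381 higher and 871 lower calls, and without library a there were 2144 and 144.

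**Figure D1:**
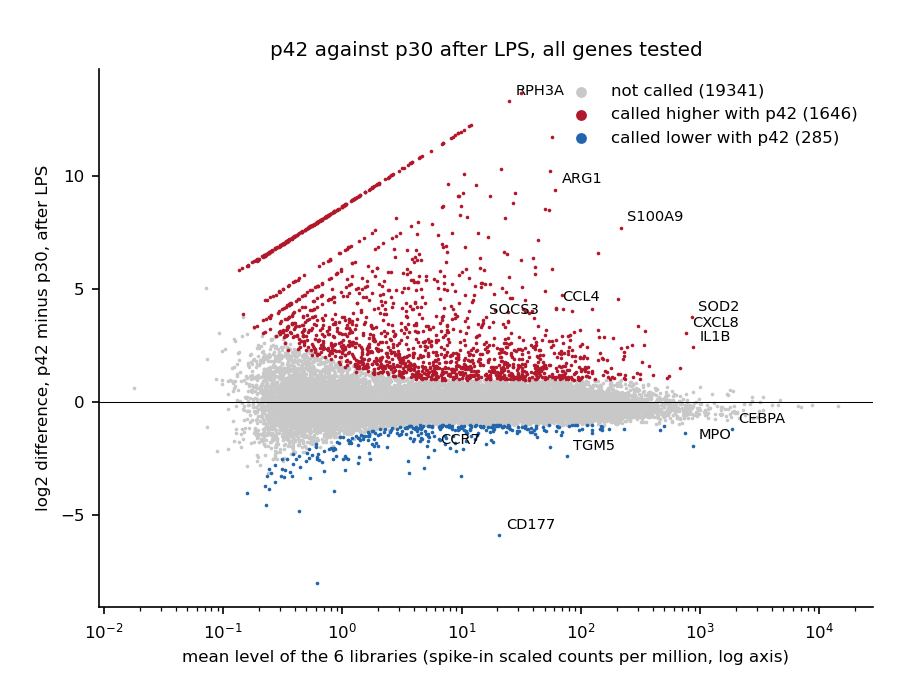
Each point is a gene: the horizontal axis is its mean level over the 6 libraries (spike-in scaled CPM, log axis) and the vertical axis its log2 difference, p42 minus p30, after LPS. Red genes (1646) were called higher and blue genes (285) lower with p42; the straight red diagonal at the upper left is made of genes without a count in p30 cells, whose fitted difference follows their level.

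Chemokines that attract neutrophils were among the higher calls. Of 15 CXC chemokines, 8 were tested, 5 were called higher and none lower, with a median log2 difference of 2.71 over those tested. CXCL8 (interleukin-8, chromosome 4) had 834, 1460 and 1750 CPM in the p42 libraries and 125, 256 and 107 CPM in the p30 libraries, a log2 difference of 3.05 ± 0.31 (adjusted p = 2.04e-21). Every p42 library lay above every p30 library, and EV cells, with 67.7 ± 24.3 CPM, lay below both. CXCL2 had 90.1, 188 and 202 CPM with p42 and 9.21, 12.3 and 8.16 CPM with p30 (log2 difference 4.02 ± 0.35, adjusted p = 2.78e-28). CXCL1 was low with p30, at 1.39, 3.51 and 1.41 CPM, and reached 29.5, 61.1 and 62.3 CPM with p42 (4.61 ± 0.38, adjusted p = 4.51e-31). CXCL3 followed with 3.39 ± 0.35 (adjusted p = 1.40e-20), and CXCL10, a ligand of CXCR3 on lymphocytes, with 2.36 ± 0.35 (adjusted p = 9e-10). CXCL1, CXCL2 and CXCL3 are close copies of each other, and reads that map to more than 1 place were not counted.

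Of 17 CC chemokines, which mainly attract monocytes and lymphocytes, 11 were tested, 4 were called higher and 1 lower, with a median of 0.57. CCL4 had 74.7, 127 and 154 CPM with p42 and 7.01, 8.55 and 4.00 CPM with p30 (4.19 ± 0.36, adjusted p = 2.02e-29). CCL3 had 125, 263 and 311 CPM with p42 and 10.1, 17.8 and 12.3 CPM with p30 (4.12 ± 0.35, adjusted p = 7.44e-30). Both lie in a cluster on chromosome 17 that also holds near-identical copies, of which CCL3L3 and CCL4L2 had no count, so their levels are uncertain to that extent. CCL20, a ligand of CCR6, was at 2.70 to 3.88 CPM with p42 and at most 0.494 CPM with p30. CCL2, the main monocyte attractant, showed no such gap: it had 202 ± 73.1 CPM with p42 and 165 ± 96.3 CPM with p30 (0.29 ± 0.30, adjusted p = 0.626), both above the 19.4 ± 4.54 CPM of EV cells. CCL7, the lower call, had 1 count over the p42 libraries and 21 over the p30 libraries, a ratio of 0.0442 (95% counting interval 0.00107 to 0.275), and lost the call in 8 of 10 alternatives, TMM and DESeq2 among them.

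Cytokine genes were among the higher calls. Of 30 on the list, 27 were tested, 11 were called higher and none lower, with a median of 1.30. IL1B was the most abundant, with 953, 1590 and 1890 CPM in the p42 libraries and 245, 314 and 257 CPM in the p30 libraries (2.44 ± 0.30, adjusted p = 4.00e-14). TNF had 139, 258 and 319 CPM against 56.1, 63.8 and 66.0 CPM (1.95 ± 0.32, adjusted p = 2.94e-08). For both genes the lowest p42 library was library a and still exceeded every p30 library. IL1A had 44, 56.7 and 76.9 CPM with p42 and 13.8, 16.8 and 13.2 CPM with p30 (2.02 ± 0.33, adjusted p = 3.16e-08). IL6 was a low gene throughout, at 3.81, 5.41 and 5.10 CPM with p42 and 0.180, 0.297 and 0 CPM with p30 (4.95 ± 0.68, adjusted p = 1.99e-11). CSF3, the granulocyte growth factor, was at 1.64 to 2.31 CPM with p42 and had 2 counts in all over the p30 libraries against 142 over the p42 libraries, a ratio of 66.0 (95% counting interval 17.9 to 550). Anti-inflammatory genes were higher as well: IL1RN, the interleukin-1 receptor antagonist, by 2.87 ± 0.33 (adjusted p = 1.08e-16), and the cytokine IL10 by 2.72 ± 0.59 (adjusted p = 0.000108). LIF, OSM and IL18 were tested and not called, at -0.44, 0.30 and -0.17. IL11, a cytokine that is not on the list, was called lower (-2.58).

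**Figure D2:**
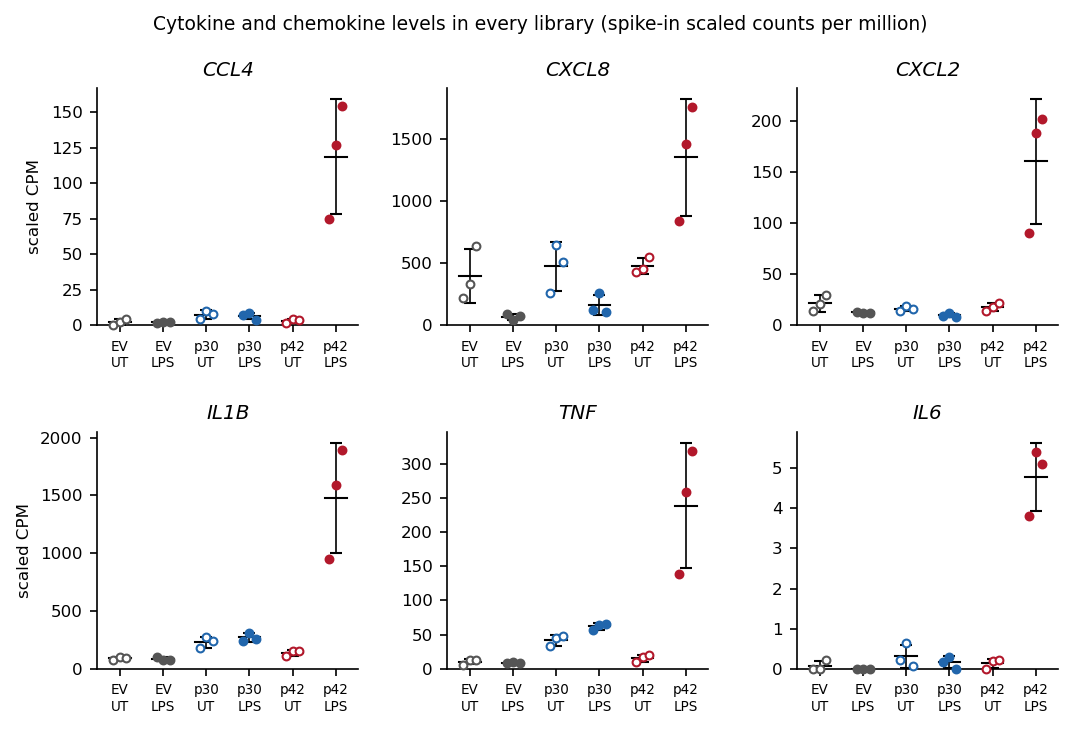
Level of 6 cytokine and chemokine genes (vertical axis, spike-in scaled CPM from 0) in each library of the 6 KO-52 groups: open circles are untreated, filled circles LPS, and the bar with whiskers is the mean with SD of 3 libraries. For each gene the p42 LPS libraries lie above all p30 LPS libraries, for example 74.7 to 154 against 4.00 to 8.55 CPM for CCL4.

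Most higher calls were also made without LPS. In untreated cells 6.15% of genes were called higher and 2.15% lower with p42. Of the higher calls after LPS, 1188 were also higher in untreated cells, which is 72.2% of the calls after LPS and 90.8% of those before. For lower calls the shared number was 159, or 55.8% and 34.8%. These numbers moved with p42 untreated replicate 3: without it there were 1169 higher and 1667 lower calls in untreated cells, and the shared numbers were 1072 higher (65.1% of the calls after LPS) and 216 lower (75.8%).

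The question of whether LPS altered the difference was put to the interaction, which is the p42 minus p30 difference after LPS minus that in untreated cells. It was called more positive after LPS for 46 genes (0.216% of those tested) and more negative for 1 gene (0.0047%). The median interaction over all genes was 0.12. Of the 46 genes, 39 were called higher with p42 after LPS, 4 were already called higher with p42 in untreated cells (CXCL1, TNFAIP2, TNFRSF9 and ACOD1) and 14 were called lower with p42 in untreated cells. All 7 genes that were higher with p42 after LPS and lower before it were among them: TNF, CCL4, EBI3, EGR2, IL7R, IL1A and LOC124904465. Of 458 genes called higher after LPS and not before, 35 had a called interaction.

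CCL4 had the smallest p. It stood at 3.26 ± 1.33 CPM in untreated p42 cells and 7.44 ± 3.06 CPM in untreated p30 cells, and after LPS at 118 ± 40.3 and 6.52 ± 2.31 CPM (interaction 5.37 ± 0.48, adjusted p = 9.88e-25). The levels in p30 cells with and without LPS lay within their SDs, and those in p42 cells did not overlap. IL1A went from 1.14 ± 0.08 to 59.2 ± 16.6 CPM with p42 and from 8.42 ± 3.68 to 14.6 ± 1.95 CPM with p30 (4.89 ± 0.49, adjusted p = 1.18e-19). EGR2, a zinc finger factor of early responses, had 5.39 ± 0.43 CPM in untreated p42 cells against 21.1 ± 5.56 CPM in untreated p30 cells, and 26.3 ± 4.85 against 7.22 ± 1.46 CPM after LPS. The order of the isoforms turned over between the conditions for these genes. CXCL8 started level, at 476 ± 62.3 and 472 ± 197 CPM in untreated p42 and p30 cells, and diverged in both directions, to 1350 ± 471 and 163 ± 81.4 CPM (3.04 ± 0.41, adjusted p = 2.19e-10). Between untreated and LPS libraries it was higher by 1.51 ± 0.29 with p42 (adjusted p = 6.34e-05) and lower with p30, at -1.54 ± 0.29 (adjusted p = 0.000449). EV cells had 397 ± 216 CPM of CXCL8 untreated and 67.7 ± 24.3 CPM after LPS. CCL3, CXCL2 and PTGS2, which encodes the inducible cyclooxygenase, also started level, with untreated log2 differences of -0.02, 0.13 and -0.07, and had interactions of 4.13, 3.89 and 3.18.

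CCL1, CCL2 and NR4A3 were 3 of the 7 genes with a called interaction and no call after LPS. CCL1, a ligand of CCR8, had 1.51 ± 0.70 CPM with p42 and 13 ± 4.0 CPM with p30 in untreated cells, and 19.1 ± 3.36 and 16.4 ± 2.48 CPM after LPS. The gap present without LPS was closed with it. The others were MIR3142HG, DUSP2, BTG2 and ACKR1, a group named after its values were seen. BATF2 was the negative case: its p42 libraries were at 0.0554 to 0.264 CPM and its p30 libraries at 0.791 to 1.97 CPM after LPS (-3.05 ± 0.72, adjusted p = 0.000449), while untreated cells had 1.20 ± 1.44 and 0.703 ± 0.557 CPM (interaction -3.88 ± 0.95, adjusted p = 0.0233). Its untreated p42 libraries ranged from 0.167 to 2.84 CPM, and the interaction was not called in 9 of 17 alternatives, TMM, RLE and DESeq2 among them.

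**Figure D3:**
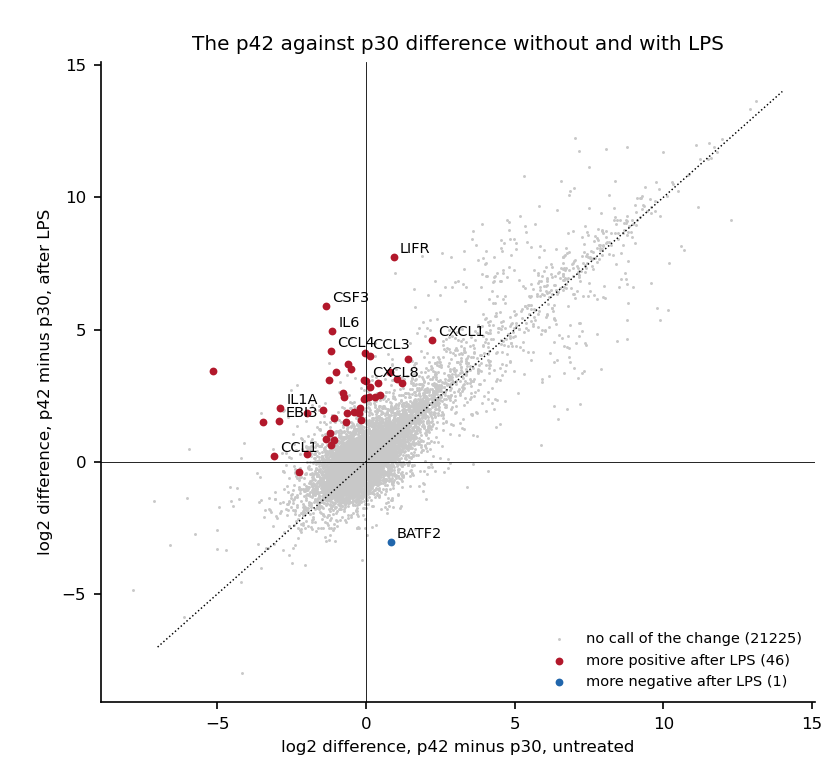
Each point is a gene: the horizontal axis is the log2 difference, p42 minus p30, in untreated cells and the vertical axis the same after LPS; the dotted line marks equal values. The 46 red genes, which had a more positive difference after LPS, lie above the line and BATF2 lies below it; most strongly differing genes sit near the line, and genes without a count in a group have fitted differences that depend on their level.

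Part of the higher calls had no read in p30 cells, so that only a lower bound of the difference can be given. For 252 called genes no read was counted in any p30 library after LPS, and 240 of these were also called higher in untreated cells. RPH3A, which encodes the synaptic vesicle protein rabphilin-3A, had 28.8, 58.4 and 63.8 CPM with p42 after LPS. It had no count with p30 or in EV cells after LPS, so p42 was at least 1070-fold above p30 on a floor of 3 counts over the group. VNN1, a pantetheinase made by granulocytes, had 15.8, 29.3 and 26.3 CPM and was at least 518-fold higher. SCN1A, a sodium channel subunit, was at least 484-fold higher, and the serpin SERPINB12 at least 447-fold. ALDH1A1, a retinaldehyde dehydrogenase, and OLAH, an acyl-ACP thioesterase, were at least 399-fold and 373-fold higher, with 11.5 to 23.9 and 9.05 to 23.9 CPM. The other members of the 10 largest rises by fitted log2 difference were LOC102724858 (at least 1350-fold), LOC105374264, the pseudogene UGT2B26P and DYNAP. Libraries were strand-specific, but the strand setting of the counting was not given in the sources used here, so overlapping transcripts may share reads.

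Late granule genes and calprotectin, which mark maturing neutrophils, had the highest median of the lists. Of 20 genes, 15 were tested, 9 were called higher and 1 lower, and the median was 5.80, or 4.74 with genes lacking a count set at their bound. The 5 tested and not called were granule and related genes of the same list: LTF, CAMP, MMP9, MMP25 and CEACAM1. LCN2, CEACAM6, CEACAM8, OLFM4 and PGLYRP1 were not tested, so the list did not rise as a whole. S100A9, a calprotectin subunit, had 269, 478 and 546 CPM with p42 and 1.93, 1.48 and 2.63 CPM with p30 (7.73 ± 0.41, adjusted p = 1.80e-76). ARG1 (arginase 1) had 71.2, 144 and 150 CPM against 0.0899, 0.346 and 0.111 CPM (9.40 ± 0.49, adjusted p = 1.60e-78). MMP8, the neutrophil collagenase, differed by 6.60 ± 0.39 (adjusted p = 3.34e-60), and HP (haptoglobin) had 21.8 to 57.0 CPM with p42 and a ratio of 1340 (95% counting interval 371 to 11100). ORM1 and S100A12 had no count with p30 and were at least 42.7-fold and 42.1-fold higher. S100A9 stood at 429 ± 127 CPM in untreated p42 cells and at 431 ± 144 CPM after LPS, and no gene of this list had a called interaction. CD177, a neutrophil surface protein, was lower, with 0.586, 0.754 and 0.776 CPM with p42 and 32.9, 39.7 and 50.0 CPM with p30 (-5.87 ± 0.41, adjusted p = 2.17e-43). EV cells had 0.328 ± 0.187 CPM of CD177, near the p42 level. CD177 has a near copy, CD177P1, which also was lower with p42 (no count with p42 against 0.584 to 1.63 CPM).

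Primary granule genes, expressed at the promyelocyte stage, were split, with 4 of 11 tested called higher and 2 lower (median 0.43). LYZ (lysozyme) had 211, 560 and 868 CPM with p42 against 50.2, 70.9 and 35.1 CPM with p30 (3.39 ± 0.32, adjusted p = 9.82e-24). MPO (myeloperoxidase) had 165, 299 and 622 CPM with p42 and 1460, 1380 and 1260 CPM with p30 (-1.92 ± 0.29, adjusted p = 1.44e-09), while EV cells, at 285 ± 73.3 CPM, were near p42. PRG2, the eosinophil major basic protein, was lower at -1.66 ± 0.33 (adjusted p = 1.29e-05).

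Phagocyte genes were mostly higher. Among surface genes of monocytes and macrophages, 12 of 23 tested were called higher and 3 lower (median 1.48). CD163, the hemoglobin scavenger receptor, had 36.8, 73.9 and 77.3 CPM with p42 and 0.360, 1.14 and 0.890 CPM with p30 (6.29 ± 0.41, adjusted p = 1.18e-49). MRC1, the mannose receptor, had 10.7 to 27.5 CPM with p42 and a ratio of 1310 (95% counting interval 234 to 51700). FCAR, the IgA receptor, and MARCO had no count with p30. The lower calls were CLEC5A (-1.45), CLEC7A (-1.13) and CSF1R (-1.05). With TMM scaling CLEC7A and CSF1R lost the call, as each did without p42 library a, p42 library b or p30 library b. SOD2, the mitochondrial superoxide dismutase, was called higher, with 942, 1840 and 2020 CPM against 114, 149 and 93.4 CPM (3.75 ± 0.32, adjusted p = 1.14e-29), as were the phagocyte oxidase genes CYBB (3.20) and NCF1 (2.37). NCF1 has pseudogenes with nearly the same sequence.

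Receptors for chemoattractants, growth factors and cytokines were called in both directions. C5AR1, the C5a receptor, had 4.39, 8.11 and 9.47 CPM with p42 and at most 0.225 CPM with p30 (5.78 ± 0.55, adjusted p = 6.05e-24), and the formyl peptide receptors FPR1 and FPR2 were higher by 3.48 and 3.75. CCR7, which guides cells to lymph nodes, had 1.76 to 2.49 CPM with p42 and 8.21 to 10.5 CPM with p30 (-2.13 ± 0.37, adjusted p = 2.28e-07). In all, 4 of 14 chemoattractant receptors were called higher and 2 lower, of which CXCR2 (-1.06) lost the call with TMM and RLE; with those scalings 6 were higher and 1 lower. Of 19 growth factor and cytokine receptors tested, 8 were called higher, among them IL6R (2.69), IL1R1 (2.04) and IL1RAP (1.66), and CSF1R was called lower with spike-in but not with TMM or RLE scaling. LIFR had 0.527 to 1.33 CPM with p42 and no count with p30, at least 22.3-fold higher. EV cells had 0.549 ± 0.193 CPM of LIFR.

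Sensors and signalling proteins of the LPS pathway were mostly not called. Of 15 receptor and adaptor genes tested, 3 were called higher (20%, beside 7.74% of all genes) and none lower (median 0.25). TLR4 had 30.9, 55.9 and 63.7 CPM with p42 and 30.7, 33.9 and 23.7 CPM with p30 (0.77 ± 0.31, adjusted p = 0.101), and CD14 had 5.75 ± 2.16 and 3.67 ± 0.52 CPM (adjusted p = 0.333). The called ones were the kinase IRAK2, with 24.1 to 39.1 against 8.06 to 9.26 CPM (1.99 ± 0.34, adjusted p = 1.27e-07), LY96 (1.12 ± 0.40, adjusted p = 0.0444) and IRAK3, an inhibitory family member (1.01 ± 0.30, adjusted p = 0.0113). LY96 and IRAK3 lost the call when p42 library b, p42 library c, p30 library a or p30 library c was left out, at log2 differences down to 0.90 and 0.78.

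NF-κB is held inactive by inhibitors that are also among its own target genes. NFKB2 was the only subunit of 5 called (1.54 ± 0.31, adjusted p = 2.19e-05), with RELA at -0.10 and NFKB1 at 0.37. Among 13 NF-κB feedback genes, of which not all encode such inhibitors, 6 were called higher and none lower (median 1.41). NFKBIZ had 189, 346 and 441 CPM with p42 and 39.7, 53.1 and 45.2 CPM with p30 (2.82 ± 0.33, adjusted p = 3.30e-16). NFKBIA, which encodes IκBα, had 272, 486 and 618 CPM against 72.9, 94.6 and 71.0 CPM (2.53 ± 0.32, adjusted p = 1.00e-13). BIRC3 (2.39), the deubiquitinase TNFAIP3 (2.05), TRAF1 (1.87) and BCL3 (1.82) were the others. All p42 libraries exceeded all p30 libraries for these 6 genes.

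AP-1 is the dimer of FOS, JUN and ATF family proteins. Of its 14 factors, 5 were called higher, 1 (BATF2) lower and 8 were not called, with a median of 0.13. FOS had 24.8, 47.5 and 55.5 CPM with p42 and 7.33, 7.37 and 6.90 CPM with p30 after LPS (2.56 ± 0.33, adjusted p = 9.17e-13). JUN had 121, 193 and 208 CPM against 26.1, 28.6 and 33.2 CPM (2.57 ± 0.32, adjusted p = 1.36e-13). The groups did not overlap for either gene, and EV cells had 10.6 ± 3.05 CPM of FOS and 14.4 ± 3.80 CPM of JUN. Both genes were also higher with p42 in untreated cells, by 1.80 and 1.45, and their interactions of 0.77 and 1.12 were not called. ATF3 (1.84 ± 0.33), FOSL2 (1.28 ± 0.31) and JUNB (1.09 ± 0.30) were called higher after LPS. JUNB lost its call without p42 library c, at 0.80. JUND had 93.3, 141 and 205 CPM with p42 against 289, 273 and 232 CPM with p30, a difference of -0.85 ± 0.30 (adjusted p = 0.0412) that was within the fold threshold and passed it without p42 library c (-1.17). FOSB, FOSL1, ATF2, ATF4, ATF7, BATF and BATF3 lay between -0.25 and 0.61.

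**Figure D4:**
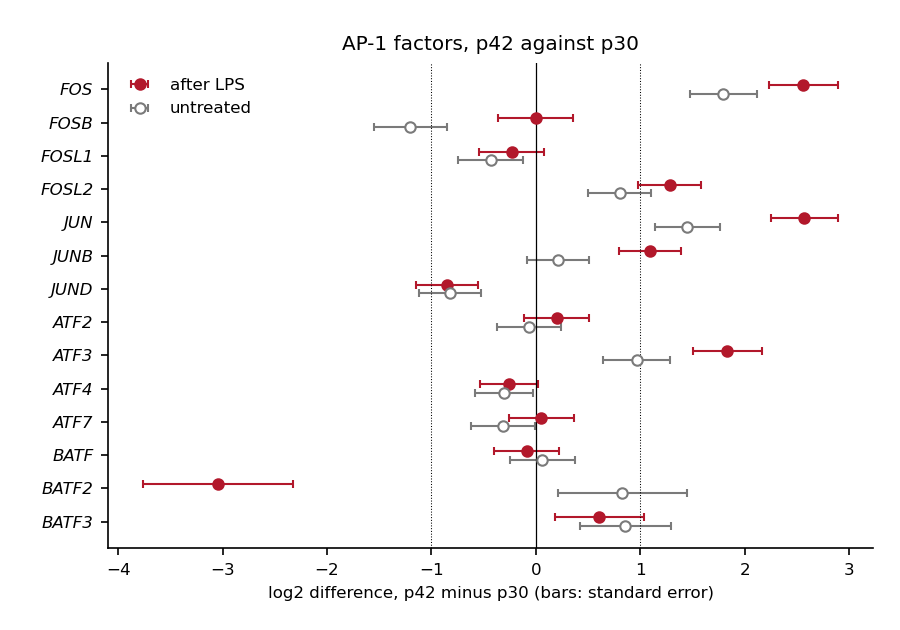
Log2 difference, p42 minus p30 (horizontal axis, bars are the standard error), for 14 AP-1 factors after LPS (filled) and in untreated cells (open); dotted lines mark the fold threshold of 1. FOS and JUN sit at 2.56 and 2.57 after LPS, and BATF2 is the factor that lies on opposite sides of 0 in the 2 conditions by the widest margin.

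Other fast-response and feedback genes gave mixed counts. Of 17 immediate early genes, 6 were called higher and 2 lower after LPS (median 0.71), whereas 1 was higher and 8 were lower in untreated cells (median -1.0). KLF2 (2.64 ± 0.56), IER3 (2.45 ± 0.33) and KLF4 (2.37 ± 0.83) were among the higher ones. KLF4 stayed below 1 CPM in all 6 libraries and lost its call in 6 of 11 alternatives. MYC had 237, 307 and 438 CPM with p42 and 759, 676 and 577 CPM with p30 (-1.04 ± 0.29, adjusted p = 0.00433), a call lost with TMM, RLE and without p42 library a, p42 library b or p30 library a. EGR3 had 5.23 to 8.31 against 17.9 to 20.6 CPM (-1.61 ± 0.32, adjusted p = 1.75e-05). EGR1, by contrast, had 56.3 ± 16.3 and 55.3 ± 2.05 CPM (0.02 ± 0.30, adjusted p = 0.976). Among MAPK phosphatases and mRNA decay factors, DUSP1, DUSP16, ZC3H12A and DUSP4 were called higher, at 1.08 to 2.01, and none of 14 was called lower. DUSP4 lost the call without p42 library c or p30 library a. ZFP36, an mRNA decay factor of the same list, had no count in any of the 6 libraries. SOCS3, the inhibitor of gp130 signalling, had 17.5, 34.5 and 31.7 CPM with p42 and 2.11, 2.27 and 2.30 CPM with p30 (3.64 ± 0.37, adjusted p = 1.57e-20), and CISH, an inhibitor of STAT5, had 4.19 to 8.53 against 13.8 to 19.1 CPM (-1.37 ± 0.33, adjusted p = 0.000714).

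Enzymes and surface proteins downstream of inflammatory signals were called in part. PTGS2 had 103, 185 and 180 CPM with p42 and 15.1, 25.7 and 13.5 CPM with p30 (3.11 ± 0.33, adjusted p = 1.45e-18). Of 14 lipid mediator enzymes, 6 were called higher, including PTGES (2.65) and ALOX5 (2.39), and LTC4S was called lower (-1.36). Inflammasome genes had 7 of 13 called higher and none lower (median 1.08). MEFV, the gene for pyrin, had 5.91 to 10.5 CPM with p42 and no count with p30, at least 192-fold higher. NLRP12 (5.35), AIM2 (3.07) and CASP1 (1.5) were also higher. Of the 15 antigen presentation and costimulation genes tested, ICAM1 (2.46), CD83 (1.86), CD86 (1.82) and CD40 (1.28) were higher, CD40 not without p42 library c or p30 library c, and none of the MHC class II genes was called. CD74, the invariant chain, was at -0.78.

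Other lists had 0 to 3 calls. Among 29 interferons and interferon-stimulated genes tested, 2 were called higher (GBP1, 1.59, and GBP2, 1.39) and 1 lower (IFI27, -1.93), or 6.9% higher beside 7.74% of all genes, with a median of -0.24 beside -0.10 over all genes. None of 34 DNA replication and mitosis genes was called (median -0.24), MKI67 being at -0.06 ± 0.28 (adjusted p = 0.935) and MCM4 at -0.25 ± 0.28 (adjusted p = 0.662). None of 20 ER chaperone genes was called (median 0.02). At an unadjusted p under 0.05, 1 of the replication genes was lower and 1 of the chaperone genes higher, and DESeq2 called 0 of either list. Among 21 genes of the ATF4 and amino acid stress response, TRIB3 was called higher (1.02) and the transaminase GPT2 lower (-1.18). TRIB3 lost the call in 5 of 11 alternatives, down to 0.82, and GPT2 in that without p42 library a (-0.96). Of 11 cyclin D and CDK inhibitor genes, CDKN1A, the gene for p21, was called higher (1.09), though not without p42 library b or c, and CDKN2A lower (-1.28). That is 9.09% each way, beside 7.74% higher and 1.34% lower of all genes. Of 19 stem and progenitor genes, FLT3 and CD38 (1.48) were called higher and none lower (median -0.34), or 10.5% higher beside 7.74% of all genes. FLT3 was at 0.117 to 0.842 CPM with p42 and had no count with p30.

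Among myeloid transcription factors, KLF5 had 37.8, 70.6 and 83.5 CPM with p42 and 2.79, 4.94 and 3.93 CPM with p30 (4.04 ± 0.36, adjusted p = 3.93e-27), and HLX was higher by 1.84 ± 0.33 (adjusted p = 5.64e-07). The other C/EBP genes were not called, CEBPB being at 0.77, CEBPD at 0.26 and CEBPE at -0.85.

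**Figure D5:**
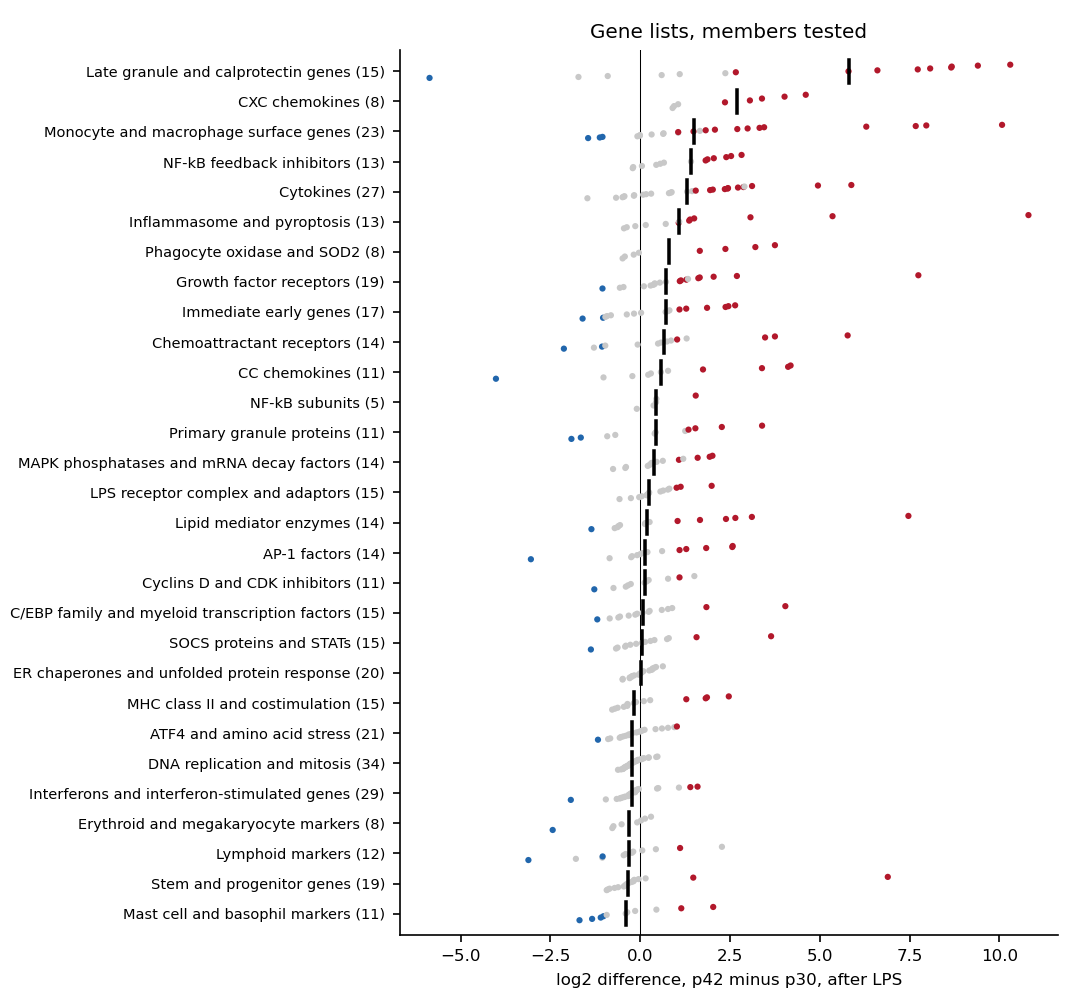
Log2 difference, p42 minus p30, after LPS (horizontal axis) of each tested member of 29 gene lists, ordered by the median (black line), with the number tested in brackets; red members were called higher, blue lower and grey not called. The late granule list (median 5.80) and the CXC chemokines (2.71) lie furthest to the right, and the mast cell and basophil list (-0.40) furthest to the left.

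Falls were fewer. After CD177, the largest were LGALS3BP, a secreted galectin-3 binding protein, with 1.26, 1.6 and 2.94 CPM with p42 and 15.1, 21.4 and 17.3 CPM with p30 (-3.24 ± 0.37, adjusted p = 1.03e-16), GNLY, the cytotoxic granule protein granulysin (-3.12), and the exonuclease PLD4 (-2.89). TGM5, a transglutaminase, was the most abundant of the 10, with 19.1, 21.8 and 33.9 CPM against 119, 134 and 135 CPM (-2.37 ± 0.32, adjusted p = 9.26e-12). IL11 (-2.58), LOC124909350 (-2.43), the ferroxidase HEPH (-2.16), CCR7 (-2.13) and CXCR5 (-2.06), the receptor for CXCL13, completed them. Setting the values beside EV cells, HEPH had 20.7 CPM in EV cells, above both isoforms, and GNLY had 0.0736 CPM, below both. Among marker lists of other lineages, GATA1, the erythroid factor, was lower (-2.44 ± 0.49, adjusted p = 2.00e-05), MS4A2 and HDC were lower at -1.69 and -1.34, and MS4A3, a gene of granulocyte and monocyte progenitors and basophils, was higher at 2.03. MS4A2 lost its call with DESeq2 and without p42 library a, p42 library b or p30 library b. CD3D was lower at -1.05, a call lost with TMM and RLE scaling and without p42 library a, p42 library b or p30 library a. In all, 2 of 11 mast cell and basophil markers tested were called higher (MS4A3 and FCER1G) and 4 lower. Of the 4, TPSAB1 (-1.03) lost the call in 10 of 11 alternatives. Of 12 lymphoid markers tested, 1 was called higher (IL7R, 1.11, a call lost in 4 of 11 alternatives) and 2 lower.

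Promoters of the genes with an altered difference were read to show what letters they hold. A promoter here was the 250 bases before the start of the Ensembl canonical transcript in hg38 (GENCODE release 44), found for 17681 of the 21272 genes tested. Motifs were searched on both strands and may overlap one another: TTGCNNAA for C/EBP, TGANTCA for AP-1, GGGANTTCC for NF-κB and TGANNCAA for C/EBP with AP-1. TTGCNNAA was in 10.3% of 1317 promoters of genes called higher, 8.61% of 244 called lower and 7.03% of all tested. It was in 8 of 43 promoters (18.6%) of genes with a more positive interaction. TGANTCA was in 7.21%, 7.79% and 4.22% of the same promoters, and in 4 of the 43. GGGANTTCC was in 1.52%, 0.41% and 1.85%, and in 2 of the 43 (4.65%). TGANNCAA was in 9.64%, 11.5% and 7.73%, and in 5 of the 43 (11.6%). A match is a description of the letters, not a site. A longer spelling, such as the gggaatttcc in the CXCL2 promoter below, does not match GGGANTTCC and was not counted. The lack of a match therefore does not show that a promoter has no NF-κB site.

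The 6 promoters with a match among the 10 genes with the smallest interaction p are printed below on the strand of the gene, matches in capitals, without bases that lie in a longer transcript of the same gene. CCL4, EGR2 and TNF had no match, and none was read for LOC105375914. IL1A was read from the minus strand of chr2:112784494-112784743, CCL3 from the minus strand of chr17:36090170-36090393, CXCL2 from the minus strand of chr4:74099197-74099445, EBI3 from the plus strand of chr19:4229273-4229522, IL1B from the minus strand of chr2:112836817-112837029 and CXCL8 from the plus strand of chr4:73740319-73740518.
IL1A promoter: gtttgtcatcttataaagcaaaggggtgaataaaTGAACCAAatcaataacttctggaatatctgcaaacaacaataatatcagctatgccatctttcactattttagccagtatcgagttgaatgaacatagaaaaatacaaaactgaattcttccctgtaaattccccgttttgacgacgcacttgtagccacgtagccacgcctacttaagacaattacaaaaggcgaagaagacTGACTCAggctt
CCL3 promoter: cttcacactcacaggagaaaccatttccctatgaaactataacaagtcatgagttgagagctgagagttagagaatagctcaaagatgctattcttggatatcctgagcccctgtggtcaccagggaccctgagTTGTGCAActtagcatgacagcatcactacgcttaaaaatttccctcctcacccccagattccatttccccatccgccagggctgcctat
CXCL2 promoter: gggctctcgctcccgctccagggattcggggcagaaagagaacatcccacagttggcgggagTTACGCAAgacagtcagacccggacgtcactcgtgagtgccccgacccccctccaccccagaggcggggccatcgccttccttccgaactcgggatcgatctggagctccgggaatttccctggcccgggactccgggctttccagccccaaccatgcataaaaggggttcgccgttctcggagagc
EBI3 promoter: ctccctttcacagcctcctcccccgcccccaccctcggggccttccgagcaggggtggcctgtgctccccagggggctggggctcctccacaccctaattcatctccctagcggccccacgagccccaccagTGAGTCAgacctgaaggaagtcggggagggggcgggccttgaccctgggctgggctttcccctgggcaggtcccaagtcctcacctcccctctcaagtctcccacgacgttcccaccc
IL1B promoter: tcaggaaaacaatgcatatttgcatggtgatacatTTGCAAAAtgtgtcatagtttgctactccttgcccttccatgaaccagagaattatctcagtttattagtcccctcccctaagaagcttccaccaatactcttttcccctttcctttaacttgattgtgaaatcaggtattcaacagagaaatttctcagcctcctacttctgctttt
CXCL8 promoter: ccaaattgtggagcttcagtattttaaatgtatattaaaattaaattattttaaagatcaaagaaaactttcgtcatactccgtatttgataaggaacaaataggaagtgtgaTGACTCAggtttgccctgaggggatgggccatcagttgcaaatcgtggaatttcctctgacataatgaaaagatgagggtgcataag

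CCL3, CXCL2 and IL1B each held a C/EBP match, CXCL8 and EBI3 an AP-1 match, and IL1A an AP-1 match 12 to 6 bases before the start with a C/EBP and AP-1 match 216 to 209 bases before it. These 6 genes had interactions of 4.13, 3.89, 3.17, 3.04, 4.45 and 4.89 in the order just given, and CCL4, without a match, had the interaction with the smallest p.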

How the data were processed

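RNA-seq was analysed for KO-52 cells, 3 libraries in each of 6 groups. The deposited table holds counts per gene, which the authors made with Bowtie2 (2.4.4, hg38) and featureCounts (Subread 2.0.3) on uniquely mapped reads; Bowtie2 is not splice-aware, so reads across exon junctions can be lost. Counts were fitted with edgeR 4.0.16 (R 4.3.3; quasi-likelihood F test, two-sided, Benjamini-Hochberg over 21272 genes kept by filterByExpr), all 18 libraries in 1 fit, with size factors from 92 ERCC spike-ins by DESeq2 1.42.0, as in the methods of the study. SE is the log2 difference over the root of F. Ratios for genes with 1 to 3 counts have exact 95% intervals that cover counting error only, as does the floor of 3 counts. The LPS columns of p42 and p30 share their names with libraries of the HPC-7 line, so they were matched to their group only, not to single samples, and are called a, b and c in column order. Members and lists were chosen with earlier results of these data known. Genes named were CEBPA, the 10 largest rises and falls (mean of at least 50 counts, groups not overlapping), up to 4 called members of each list, all AP-1 factors and the 10 genes with the smallest interaction p; others, such as TLR4, CCL2, S100A9 and MYC, were chosen after their values were seen. Alternatives were other scalings, filters, tools and libraries left out. The script was tested on simulated data.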

Additional observations from a re-analysis of the deposited data

Results flagged for a closer look

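For 27 of 128 genes named by the rule, the p42 minus p30 difference changed between untreated and LPS-treated cells. The test was edgeR's test of the interaction itself. The rule chose genes in part by a small interaction p and in part by the difference after LPS, which enters the interaction. The number 27 therefore follows in part from the choice and does not show how common such changes are. Among all genes tested, 0.216% had a called more positive interaction and 0.0047% a more negative one. On the log2 scale the change was 5.37 for CCL4, 4.13 for CCL3, 4.38 for CCL20, 2.38 for CXCL1, 3.89 for CXCL2, 2.58 for CXCL3 and 3.04 for CXCL8 among chemokines. Among cytokines it was 4.89 for IL1A, 3.17 for IL1B, 3.40 for TNF, 6.08 for IL6, 7.22 for CSF3 and 4.45 for EBI3. Among feedback genes and early genes it was 2.69 for NFKBIZ, 2.04 for NFKBIA, 2.46 for BIRC3, 2.25 for TNFAIP3, 1.75 for ZC3H12A, 2.34 for IER3, 3.83 for EGR2 and -3.88 for BATF2. The others were PTGS2 (3.18), ICAM1 (2.15), CD83 (2.08), IL7R (2.33), LIFR (6.81) and LOC105375914 (4.30). CSF3, CCL20, LIFR and BATF2 had few counts: CSF3 at most 2.31 CPM, CCL20 at most 3.88 CPM, LIFR at most 1.33 CPM and BATF2 at most 2.84 CPM in any library. IL6 had 10 counts over the p30 LPS libraries. The size of a change against a group at or near 0 depends on the fit.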

How the results depend on the processing

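The number of genes called after LPS was 1931 and stayed within 1.5 times of that in each alternative: 2313 with TMM, 2300 with RLE, 1893 without a filter, 1862 with DESeq2, 1663 with only the 6 libraries, 2184 without a fold threshold, and 1572 to 2288 with a library left out. Of the 1931 calls none turned in sign under TMM (1823 kept) or RLE (1831 kept). Lower calls ranged from 144 to 871 over the libraries left out. The interaction gave 47 calls, 64 with TMM, 63 with RLE, 45 with DESeq2, 44 without a filter, 43 with 12 libraries and 35 to 66 with a library left out. The comparison of untreated cells gave 1308 higher and 457 lower calls, 1799 and 297 with TMM (85.8% against 74.1% higher), and 1402 to 2836 calls in all with a library left out; the 2836, of which 1667 were lower, came without p42 untreated replicate 3, which had 0.437% spike-in reads against 0.733% and 0.61% in the other untreated p42 libraries. Of 128 named genes compared after LPS, 112 kept their side of the threshold in all alternatives run, 15 lost it in at least 1 and JUND passed it in 1; of 27 interactions, 19 kept it and 8 did not (BATF2, ZC3H12A, CXCL1, CCL20, CSF3, IL6, LIFR and IL7R). After LPS the call was lost without p42 library a for KLF4, CCL7, GPT2, MS4A2 and CD3D; without b for LY96, IRAK3, KLF4, CCL7, PRTN3, TRIB3, CDKN1A, MS4A2, IL7R and CD3D; without c for LY96, IRAK3, JUNB, KLF4, DUSP4, PRTN3, TRIB3, CDKN1A, CD40 and FCER1G. It was lost without p30 library a for LY96, IRAK3, DUSP4, FCER1G, IL7R and CD3D, without b for KLF4, CCL7, PRTN3, TRIB3 and MS4A2, and without c for LY96, IRAK3, KLF4, CCL7, PRTN3, TRIB3, CD40 and IL7R. Among interactions, IL6 lost it with DESeq2 only, IL7R only without p30 untreated replicate 2, and CXCL1 with TMM, RLE, DESeq2 or without p30 LPS library a, p42 untreated replicate 1 or p30 untreated replicate 2. ZC3H12A, CCL20, CSF3 and LIFR lost it without at least 1 library of each of the 4 groups. CSF3 and LIFR also lost it with TMM and RLE, and ZC3H12A in the fit of 12 libraries. BATF2 lost it with TMM, RLE, DESeq2 and without p42 LPS library b or c, p30 LPS library c, p42 untreated replicate 2 or p30 untreated replicate 1 or 3. No call of a named gene turned in sign. With TTNCNNAA for the C/EBP motif the shares were 31.2%, 27% and 26.5% for genes called higher, called lower and all tested, and 39.5% for those with a more positive interaction. Setting genes without a count at their bound, and the replicate block, were chosen after seeing the data. The cause of these shifts was not tested. No paired analysis of the LPS libraries was run. Their columns end in replicate numbers, but the column names also match HPC-7 libraries, so they were matched to groups only. The untreated libraries carry replicate numbers too, but same-numbered p42 and p30 libraries did not deviate together (correlations over genes of -0.17, -0.08 and -0.07). With the number as a replicate block in the 6 untreated libraries there were 1640 calls, 1593 without the block. For the 252 called genes without a p30 count, the depth allows only a bound on the fold.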
